A study of Mus musculus with 48 samples.

Results

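The genes for proteins of the cytosolic ribosome were taken as the genes of the count tables whose symbol is Rpl or Rps followed by a number, then optionally a letter (a, x, l or y) and a further number, together with Rplp0, Rplp1, Rplp2 and Rpsa. Entries named as pseudogenes and symbols with longer suffixes, such as Rpl36al (431 CPM in the mix) and Rps27rt, were left out, and no measured value was used to choose members. The rule found 83 members among 20300 genes in the whole-tumor mix and among 14363 genes in the CD11b+ cells. Of these members, 51 belong to the large subunit and 32 to the small subunit. The tumors came from GL261 mouse glioma cells grown in brains of C57BL/6 mice, and the injected cells carried either a hairpin against Selp, the gene for P-selectin (shSELP), or a negative-control hairpin (shNC). For the mix, labeled day 16, CD11b+ cells, the remaining CD45+ cells and the remaining cancer cell fraction were combined in equal amounts, so the number of cells per class describes the mixture and not the tumor. For the CD11b+ libraries, labeled day 21, only the CD11b+ fraction was sequenced. Brains were pooled within a group, only the injected cells carried a hairpin, and the 2 mix libraries of a group were not stated to be separate pools. Ribosomal proteins assemble with ribosomal RNA into the subunits that carry out translation, and cells spend a large part of their mRNA on them. Their mRNAs start with a pyrimidine run through which mTOR and Larp1 control translation, so mRNA level and protein output can differ. Several ribosomal proteins also act outside the ribosome, for example in p53 control, and some have paralogs used in particular tissues.

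Selp, the gene the hairpin was made against, was counted in the tumor class as 1 UMI in shNC replicate 1, 1 in shNC replicate 2, 0 in shSELP replicate 1 and 0 in shSELP replicate 2. The tumor cells held 3992014, 2930870, 692021 and 597207 UMIs in the same order, so 3 counts would have been 0.752, 1.02, 4.34 and 5.02 CPM (UMIs scaled to a common library total, the usual 1e6). Knockdown in the tumor cells could therefore not be measured from these counts. Over all cells Selp had 17, 25, 21 and 21 UMIs in the mix, and 4 and 4 in the shNC and shSELP CD11b+ libraries. Of the 8 sequencing entries of the CD11b+ shSELP library, 7 had a description line naming the negative control beside lines naming the knockdown. The sign of every CD11b+ difference therefore rests on titles and genotype. Itgam, the gene for CD11b, stood at 114 CPM (shNC) and 168 CPM (shSELP) in the CD11b+ libraries and at 109, 113, 169 and 164 CPM in the mix, so its level did not set the sorted libraries apart from the mix. The mix kept 2183, 2179, 2190 and 2174 cells with median UMIs of 9547, 8051, 6164 and 9879.5. Mitochondrial UMIs made up 2.93%, 2.61%, 2.83% and 2.40% of these libraries. The CD11b+ libraries kept 2731 and 2804 cells with median UMIs of 4209 and 3737 and mitochondrial shares of 3.01% and 2.65%. Cell classes were gates on detected markers and not clusters, and a gate by detected markers favors deeply sequenced cells. No doublet caller was run. The gate left out cells with a large part of another class's markers, but cells with fewer of them were kept, so doublets may remain. Shared barcodes were few, with 5 barcodes found in more than 1 library among 9172 deposited cells of the mix and 3 among 5724 of the CD11b+ tables.

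Most members were among the abundant mRNAs. Of the 83 members, 62 had a mean of at least 1000 CPM over the mix libraries, 12 lay from 100 to 1000 CPM and 9 lay under 100 CPM. The median member stood at 2035 CPM. UMIs were counted from 3′ ends, so levels were not divided by gene length. Rps24, a small-subunit protein, was the most abundant member at 5065, 5291, 4774 and 4703 CPM in shNC replicates 1 and 2 and shSELP replicates 1 and 2. Rpl23 and Rps20 followed with means of 4676 and 4521 CPM. At the other end, the paralogs Rpl3l, Rpl10l and Rpl39l had means of 1.55, 0.273 and 2.79 CPM, and the very low counts allow little to be said of them. In GENCODE M21 (GRCm38) the members lie on 19 chromosomes, with 14 on chromosome 7 and 4 on the X chromosome. Several members have near-identical copies elsewhere in the genome, and reads that fit more than 1 place are not counted, so their levels are uncertain. Rpl10 (X:74270812-74273135, plus strand), which completes the large subunit, stood at only 15.9 CPM beside 114 CPM for its copy Rpl10-ps3. Rps27 (3:90212522-90213651, minus strand) stood at 18.6 CPM beside 305 CPM for the related Rps27rt. The same caution holds for Rps12 (81.1 CPM, with Rps12-ps3 at 44.0), Rpl9 (88.2, with Rpl9-ps6 at 65.9), Rpl27 (98.6, with Rpl27-ps3 at 80.7), Rpl13a (150, with Rpl13a-ps1 at 9.59) and Rpl36a (196, with Rpl36a-ps1 at 65.4). Rpl7a (2:26910764-26913318, plus strand), a large-subunit protein with the copy Rpl7a-ps5 at 17.1 CPM, stood at 343, 348, 412 and 472 CPM. For these genes the counts describe what could be assigned and not the full mRNA level.

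Members made up 18.6% and 18.4% of all UMIs in shNC replicates 1 and 2, and 15.8% and 15.8% in shSELP replicates 1 and 2. The per-cell medians were 17.2%, 17.7%, 14.2% and 15.7% in the same order. Both shNC libraries lay above both shSELP libraries on either measure. The libraries also differed in the classes they held, because tumor cells numbered 264 and 191 in shNC and 54 and 62 in shSELP, while endothelial cells numbered 20 and 30 in shNC and 329 and 71 in shSELP. Since the share differed among classes, a library's share follows both its mixture and the shares within classes, and these were not separated by a test.

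The share differed among classes, with T, NK and B cells at the upper end. In NK cells members took 26.9%, 29.1%, 23.2% and 26.9% of UMIs in shNC replicates 1 and 2 and shSELP replicates 1 and 2. T cells had 24.5%, 25.2%, 26.2% and 24.1%. Tumor cells had 26.6%, 22.2%, 19.8% and 19.5%. Lymphocytes and tumor cells of shNC replicate 1 lay close together, whereas tumor cells were below both lymphocyte classes in the other libraries. Dendritic cells had 18.4%, 16.6%, 17.0% and 15.3%. Microglia had 16.7%, 16.4%, 16.0% and 16.8%. Macrophages had 14.2%, 15.2%, 13.9% and 12.9%. The myeloid classes thus stayed below T cells and NK cells in every library. Endothelial cells had 12.1%, 12.4%, 8.28% and 8.90%, lower than all classes named so far in each library. B cells, with only 26, 32, 10 and 12 cells, reached 32.6%, 33.2%, 30% and 32.7%. Neutrophils had 11.2% and 14.9% in shNC (7 and 9 cells) and 3.96% and 5.06% in shSELP (24 and 17 cells). Their medians over cells were closer together, at 4.28%, 5.77%, 3.24% and 4.98%, because a few cells carried much of the shNC sums. Mural cells had 16.1%, 13.4%, 5.96% and 7.54% from 5, 8, 76 and 23 cells, and oligodendrocytes 6.76%, 9.83%, 6.25% and 8.71% from 5, 20, 17 and 16 cells. B cells lay above every class named here in all libraries. Summed UMIs made neutrophils the lowest of the named classes in shSELP only, whereas the median over cells made them lowest in every library but shSELP replicate 2. Oligodendrocytes lay below endothelial cells in every library by summed UMIs. Classes were ordered by their mean share over the same 4 libraries, and neighbors were compared within libraries by an exact sign-flip test. Its smallest possible two-sided p with 4 pairs is 0.125. The order fixed the sign of each mean difference, so these p-values do not test the order. Tumor cells exceeded dendritic cells by 5.22 ± 2.31 percentage points (mean ± SD over libraries, 4 of 4 positive, p = 0.125). Microglia exceeded macrophages by 2.42 ± 1.14 points (4 of 4, p = 0.125). Macrophages exceeded endothelial cells by 3.59 ± 1.58 points (4 of 4, p = 0.125). These 3 steps had the same direction in every library, and the test could not give a smaller p. The steps from NK cells to T cells (1.52 ± 3.08 points, p = 0.5), from T cells to tumor cells (3.0 ± 3.66, p = 0.25) and from dendritic cells to microglia (0.346 ± 1.38, p = 0.625) each held in 3 of 4 libraries. Taking the median over cells turned the step from dendritic cells to microglia to -1.60 points and that from NK cells to T cells to -0.661 points, so neither had a fixed direction. Depth differed among classes and libraries, with tumor medians of 15669.5, 16110, 12576.5 and 6714 UMIs beside macrophage medians of 10477, 9750, 9322 and 15868. Across macrophages of a library, the Spearman correlation of share with UMIs was -0.0253, 0.118, -0.0299 and -0.192 (685, 585, 404 and 607 cells), so depth and share hardly moved together there. Among T cells it was 0.142, 0.137, 0.194 and 0.0836 (435, 444, 404 and 451 cells). In NK cells of shNC replicate 2 it reached 0.773 over 85 cells, so share and depth went together there. Tumor cells had 0.274, 0.164, 0.0852 and 0.205 (264, 191, 54 and 62 cells). Microglia had 0.0906, -0.0822, 0.283 and -0.0346 (58, 76, 231 and 96 cells). Dendritic cells of shSELP replicate 2 had 0.390 (52 cells). Endothelial cells had -0.116 and -0.305 in shSELP replicates 1 and 2 (329 and 71 cells). Macrophages of the CD11b+ libraries had 0.275 and 0.215 (1568 and 1828 cells), both above the 4 values of mix macrophages.

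**Figure D1:**
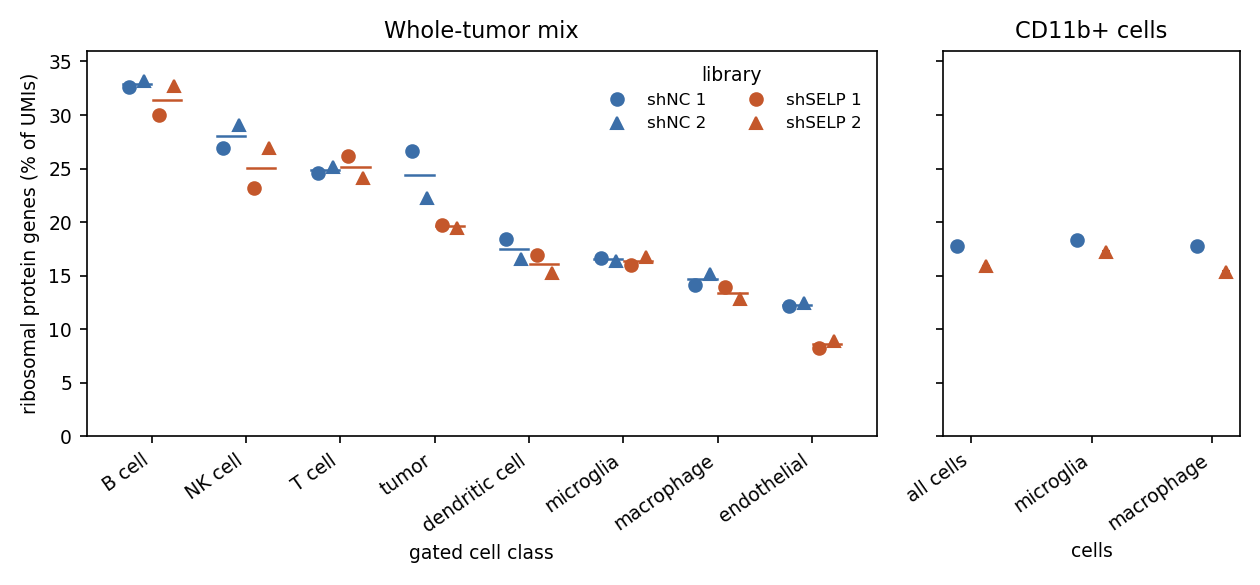
Share of UMIs from ribosomal protein genes by class and library, in the mix (left; circles replicate 1, triangles replicate 2, blue shNC, orange shSELP, bars group means) and in CD11b+ cells (right). Error bars at right are exact 95% binomial intervals, which cover counting error only.

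Within classes, the share was compared between groups by exact permutation, whose smallest possible two-sided p with 2 against 2 libraries is 0.333. Because libraries of a group may come from the same pool, such a p measures only the spread between libraries. In tumor cells the share was 24.4 ± 3.09% in shNC and 19.6 ± 0.212% in shSELP, a difference of -4.80 points (p = 0.333). The shSELP tumor gate held only 54 and 62 cells, and both of its libraries lay below both shNC libraries. Without shNC replicate 1 the difference was -2.62 points. The 10th percentile over cells of the tumor gate was 17.99% and 13.57% in shNC and 5.02% and 9.31% in shSELP. Medians over these cells were 25.47% and 22.41% in shNC and 19.997% and 19.87% in shSELP. The difference therefore describes gated cells, and whether all of them were tumor cells was not tested. Mitochondrial shares of the tumor class were 2.41%, 2.31%, 2.02% and 1.77%, also lower in shSELP. In macrophages the share was 14.7 ± 0.724% and 13.4 ± 0.752%, a difference of -1.28 points (p = 0.333), again without overlap of the groups, and between -1.81 and -0.747 points with 1 library left out. Mitochondrial shares of the macrophage class were 2.83%, 2.19%, 2.14% and 1.94%, lower in shSELP as well. Endothelial cells stood at 12.3 ± 0.217% and 8.59 ± 0.443%, a difference of -3.70 points (p = 0.333), also without overlap. For the median over cells the endothelial values were 10.2% and 8.79% in shNC and 8.34% and 9.01% in shSELP, so the difference was -0.816 points and the groups overlapped. NK cells had 28.0 ± 1.49% and 25.1 ± 2.64% (-2.92 points, p = 0.667), and the groups overlapped, with -0.343 points for the median over cells and -4.79 to -1.05 points with 1 library left out. Dendritic cells had 17.5 ± 1.28% and 16.1 ± 1.19% (-1.36 points, p = 0.667), with overlap as well, -2.63 points for the median over cells and -2.27 to -0.457 points with 1 library left out. Microglia had 16.5 ± 0.207% and 16.4 ± 0.583% (-0.164 points, p = 1), and leaving out shSELP replicate 1 turned the difference to 0.248. T cells had 24.9 ± 0.439% and 25.2 ± 1.47% (0.320 points, p = 1), and leaving out shSELP replicate 1 turned the difference to -0.720. No class passed a test at 0.05, which 2 libraries per group could not have allowed, and differences between the classes' group responses were not tested.

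Among T cells, those gated as resting had shares of 28.6%, 28.1%, 28.0% and 28.1% in the order shNC replicates 1 and 2, shSELP replicates 1 and 2. Those gated as activated had 24.0%, 24.7%, 26.0% and 23.9%. Resting cells therefore lay higher in 4 of 4 libraries, by 3.53 ± 1.15 points (exact sign-flip p = 0.125, the smallest possible). They numbered 45, 67, 42 and 49 beside 352, 347, 324 and 367 activated cells. Median depth was lower in resting cells, at 3416, 4255, 4464 and 5397 UMIs against 6176, 6188, 5035.5 and 8073, so state and depth cannot be told apart here. Mitochondrial shares were higher in resting cells too, at 4.03%, 3.78%, 4.04% and 3.93% against 3.46%, 3.20%, 3.04% and 3.30%. Cycling T cells had shares of 24.5%, 24.3%, 23.7% and 23.3%, and other T cells 25.2%, 25.5%, 26.9% and 24.4%. Cycling T cells lay lower in 4 of 4 libraries, by -1.56 ± 1.13 points (p = 0.125), or -1.01 points without shSELP replicate 1. Cycling T cells were deeper, with medians of 14154.5, 14059, 10750 and 15747 UMIs against 4053, 4540, 4218 and 5779, so cycling and depth cannot be told apart either. In macrophages the cycling cells had 13.6%, 14.8%, 14.3% and 12.4%, and the other cells 14.6%, 15.4%, 14.3% and 13.4%. The macrophage difference was -0.619 ± 0.476 points (p = 0.25), with 1 of 4 libraries positive. Cycling tumor cells differed from other tumor cells by -1.13, 1.66, 2.57 and 5.82 points, which was not tested because shSELP replicate 2 had only 8 tumor cells outside the cycle gate.

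Single members were compared between classes by fitting all classes at once, with a term for library and macrophages as the reference. In T cells 59 of 80 tested members were higher and 2 were lower than in macrophages, where 35.1% of all 8616 genes tested were higher and 31.4% lower (edgeR quasi-likelihood test, Benjamini-Hochberg adjusted p under 0.05). The members' median log2 fold change was 0.54, beside 0.08 for all genes. Leaving out shNC replicate 2 or shSELP replicate 1 left 1 member lower. In NK cells 56 of 80 were higher and 1 lower, beside 19.2% and 24.6% of all genes by the same test. Here the members' median was 0.67 against -0.08 for all genes. Both subunits took part in the lymphocyte levels, with 37 of 48 large-subunit and 22 of 32 small-subunit members higher in T cells and 34 and 22 in NK cells. Rps15a (7:118104372-118116188, minus strand), a small-subunit protein, stood at 8278, 8465, 9175 and 8574 CPM in T cells and at 2734, 2860, 2680 and 2311 CPM in macrophages. Every T cell value lay far above every macrophage value (log2 fold change 1.44, SE 0.18, edgeR quasi-likelihood, Benjamini-Hochberg adjusted p = 2.03e-08). In NK cells it stood at 7560, 8085, 6445 and 7125 CPM (1.17, SE 0.18, edgeR quasi-likelihood, Benjamini-Hochberg adjusted p = 2.32e-06). Rpsa (9:120127689-120132369, plus strand), a small-subunit protein also known as a laminin receptor, stood at 6563, 6322, 6788 and 6289 CPM in T cells and at 2116, 2331, 2116 and 1830 CPM in macrophages. Its T cell levels were higher in all libraries (1.37, SE 0.23, edgeR quasi-likelihood, Benjamini-Hochberg adjusted p = 2.93e-06). NK cells had 4980, 5815, 4539 and 5414 CPM of Rpsa, also above all macrophage values (1.02, SE 0.23, edgeR quasi-likelihood, Benjamini-Hochberg adjusted p = 0.000385).

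**Figure D2:**
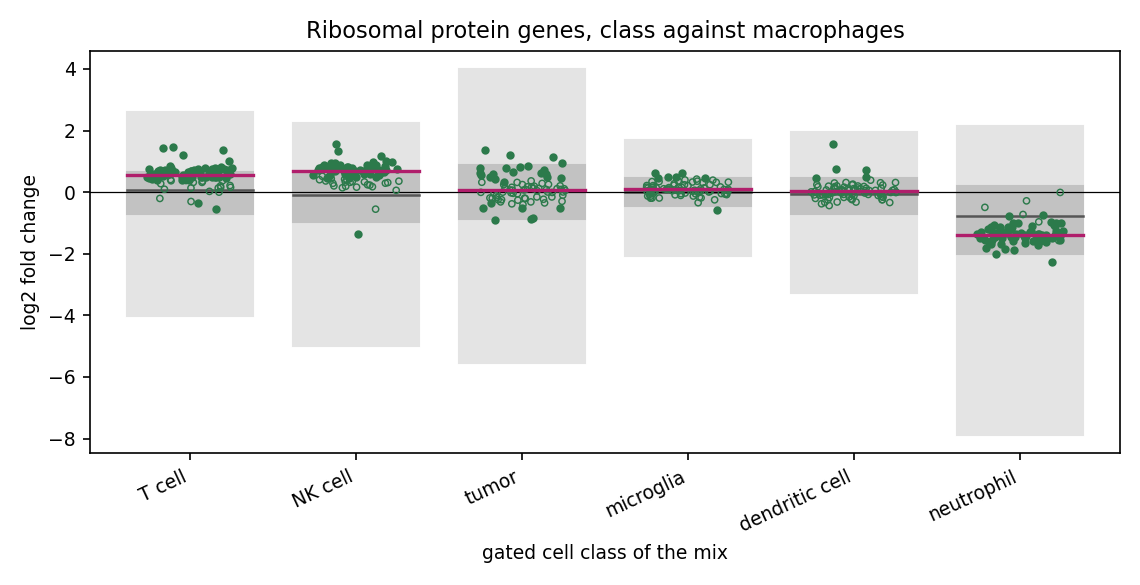
Log2 fold change of each ribosomal protein gene in each class against macrophages (green; filled where the edgeR adjusted p was under 0.05; magenta line, median of the members). Grey bands show the 25th to 75th and the 5th to 95th percentile of all genes tested, and the grey line their median.

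The stalk proteins, which bring translation factors to the ribosome, were read next, and differences among them were not tested. Rplp0 (5:115559467-115563727, plus strand), the stalk base, stood at 5623, 5400, 5396 and 4985 CPM in T cells and at 2753, 2872, 2889 and 2559 CPM in macrophages. It was higher in T cells (log2 fold change 0.67, edgeR quasi-likelihood, Benjamini-Hochberg adjusted p = 0.00135). The NK cell levels of Rplp0 were 4705, 5136, 3573 and 4709 CPM, and that comparison did not pass (0.42, edgeR quasi-likelihood, Benjamini-Hochberg adjusted p = 0.0583). Rplp1 (9:61913284-61914542, minus strand), which pairs with Rplp2 on the stalk, averaged 3088 CPM in T cells, 4063 in NK cells and 2326 in macrophages. Neither lymphocyte class passed for it (T cells 0.13, NK cells 0.51, edgeR quasi-likelihood, Benjamini-Hochberg adjusted p = 0.62 and 0.0659). Rplp2 (7:141447370-141451585, plus strand) averaged 1053 CPM in T cells and 1125 in NK cells beside 623 in macrophages. It was higher in T cells (0.50, edgeR quasi-likelihood, Benjamini-Hochberg adjusted p = 0.00644) and in NK cells (0.55, adjusted p = 0.00652). Rpl5 (5:107900502-107909005, plus strand), which with Rpl11 carries 5S RNA and binds Mdm2, was higher in T cells (0.53, edgeR quasi-likelihood, Benjamini-Hochberg adjusted p = 0.00323). Its partner Rpl11 (4:136028265-136053428, minus strand) was higher in T cells as well (0.61, edgeR quasi-likelihood, Benjamini-Hochberg adjusted p = 0.00204). Rps6 (4:86854660-86857412, minus strand), which S6 kinase phosphorylates, averaged 1829 CPM in T cells and 1094 in macrophages (0.47, edgeR quasi-likelihood, Benjamini-Hochberg adjusted p = 0.0155). Rpl38 (11:114668524-114672331, plus strand), needed for translation of Hox mRNAs, was higher in NK cells (0.97, edgeR quasi-likelihood, Benjamini-Hochberg adjusted p = 7.15e-06) and in T cells (0.61, adjusted p = 0.00112). Rps19 (7:24884371-24889806, plus strand), whose human gene is mutated in Diamond-Blackfan anemia, did not pass in T cells (0.37, edgeR quasi-likelihood, Benjamini-Hochberg adjusted p = 0.142) or NK cells (0.18, adjusted p = 0.556). Rps27a (11:29545846-29548109, minus strand), made as a fusion with ubiquitin, passed in NK cells (0.56, edgeR quasi-likelihood, Benjamini-Hochberg adjusted p = 0.00291) and not in T cells (0.32, adjusted p = 0.0666). Most of these named proteins were thus higher in at least 1 lymphocyte class, with Rplp1 and Rps19 as members that passed in neither.

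The remaining members read in both lymphocyte classes whatever their values gave a similar picture with some exceptions. Rps3, a small-subunit protein with DNA repair activity, averaged 3631 CPM in T cells, 4119 in NK cells and 1928 in macrophages (T cells 0.64, NK cells 0.81, edgeR quasi-likelihood, Benjamini-Hochberg adjusted p = 0.00135 and 0.000221). Rps14, whose human gene lies in the region lost in 5q- syndrome, averaged 3887, 4563 and 2224 CPM in the same order (0.54 and 0.75, edgeR quasi-likelihood, Benjamini-Hochberg adjusted p = 0.00734 and 0.00071). For Rpl3, a core protein at the peptidyl transferase center, the means were 2840, 3093 and 1375 CPM (0.77 and 0.88, edgeR quasi-likelihood, Benjamini-Hochberg adjusted p = 0.000455 and 0.000213). Each of these was higher in both lymphocyte classes. Rpl7 (0.51 and 0.60), Rpl10a (0.73 and 0.79) and Rpl39 (0.72 and 0.78), all large-subunit proteins, were higher in both classes too, as were Rps4x (0.55 and 0.71) and Rpl13a (1.21 and 0.73) by the same test. Rps25, needed for translation from viral entry sites, averaged 1977 CPM in T cells, 2223 in NK cells and 1636 in macrophages and passed in neither (T cells -0.00, NK cells 0.16, edgeR quasi-likelihood, Benjamini-Hochberg adjusted p = 1 and 0.416). Among members of at least 100 CPM, Rps29 lay furthest below the others in T cells beside Rps25 and Rps27l. Rps29 averaged 3313 CPM in T cells, 4024 in NK cells and 3162 in macrophages (-0.20 and 0.06, edgeR quasi-likelihood, Benjamini-Hochberg adjusted p = 0.306 and 0.819). Rpl31, a large-subunit protein at the tunnel exit, had a small value in NK cells (0.14, edgeR quasi-likelihood, Benjamini-Hochberg adjusted p = 0.513). Rpl10, with its many copies, averaged 13.2 CPM in T cells and 21.0 in NK cells (-0.30 and 0.23).

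In tumor cells 20 of 80 members were higher and 7 lower than in macrophages, where 37.6% of all genes were higher and 34.3% lower (edgeR quasi-likelihood test, Benjamini-Hochberg). The members' median was 0.08 and that of all genes 0.06. Counts in this comparison depended on scaling. Library size without TMM gave 55 higher and 0 lower, beside 4796 higher and 1976 lower of all 8616 genes. The median of all genes then moved to 0.60, and relative to that median the members stood at 0.04. With DESeq2 52 were higher and 3 lower, beside 6695 higher and 2433 lower of all 14240 genes. All genes then stood at 1.02 and the members at -0.52 relative to them. Leaving out shNC replicate 1 gave 10 higher and 15 lower. The larger share of UMIs in tumor cells therefore did not correspond to a higher level relative to the other genes under every scaling. Rps12, a small-subunit protein with a near-identical copy, averaged 202 CPM in tumor cells and 56.1 in macrophages (1.35, edgeR quasi-likelihood, Benjamini-Hochberg adjusted p = 6.86e-10). Rpl37, a small zinc-binding protein of the large subunit, averaged 8922 and 2666 CPM (1.21, edgeR quasi-likelihood, Benjamini-Hochberg adjusted p = 1.7e-08). Rps4x (X:102184941-102189394, minus strand), the X-linked form of a small-subunit protein, averaged 6541 and 2333 CPM (0.96, edgeR quasi-likelihood, Benjamini-Hochberg adjusted p = 7.46e-05). Rpl9, a large-subunit protein with copies, averaged 192 and 62.7 CPM (1.13, edgeR quasi-likelihood, Benjamini-Hochberg adjusted p = 8.73e-09). On the lower side, Rps29, a small-subunit zinc-binding protein, averaged 2454 CPM in tumor cells and 3162 in macrophages (-0.89, edgeR quasi-likelihood, Benjamini-Hochberg adjusted p = 3.21e-05). Rpl35a, whose human gene is also mutated in Diamond-Blackfan anemia, averaged 1969 and 2479 CPM (-0.87, edgeR quasi-likelihood, Benjamini-Hochberg adjusted p = 1.07e-05). Rpl11 averaged 748 and 936 CPM (-0.85, edgeR quasi-likelihood, Benjamini-Hochberg adjusted p = 4.41e-05). In the main fit this partner of Rpl5 was thus lower in tumor cells and higher in T cells than in macrophages. With library size without TMM 0 members were lower in tumor cells, so the calls of Rps29, Rpl35a and Rpl11 were lost under that scaling.

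In microglia 6 of 80 were higher and 1 lower, beside 20.9% and 20.4% of all genes (edgeR quasi-likelihood test, Benjamini-Hochberg), with medians of 0.09 for members and 0.00 for all genes. Leaving out any 1 of the 4 libraries reduced the higher members to 2 or 3. DESeq2 gave 19 of 82 higher and 1 lower, beside 2870 higher and 1399 lower of all 13138 genes. Under DESeq2 all genes had a median of 0.32 and the members -0.10 relative to them, so the count depended on scaling. Rpl21, a large-subunit protein, averaged 1874 CPM in microglia and 1129 in macrophages (0.62, edgeR quasi-likelihood, Benjamini-Hochberg adjusted p = 0.00336). Rpl13a and Rpl10a, which averaged 143 and 1901 CPM in microglia against 95.6 and 1265 in macrophages, were also higher (0.48 each, edgeR quasi-likelihood, Benjamini-Hochberg adjusted p = 0.00969 and 0.0345). Rpl8 (-0.34) and Rplp0 (-0.25) lay furthest below the members' median after Rps27l without passing (edgeR quasi-likelihood, Benjamini-Hochberg adjusted p = 0.102 and 0.28). In dendritic cells 5 of 80 were higher and 0 lower, beside 16.4% and 20.8% of all genes by the same edgeR test, while 6 members had an unadjusted p under 0.05 beside 3817 of all 8616 genes. DESeq2 gave 10 higher and 0 lower there, beside 2081 and 1625 of all 12771 genes, and put the members at -0.13 relative to all genes, where the main fit had put them at 0.09. Leaving out shNC replicate 1 or shSELP replicate 1 reduced the higher members to 3. Rpsa averaged 3926 CPM in dendritic cells and 2098 in macrophages (0.74, edgeR quasi-likelihood, Benjamini-Hochberg adjusted p = 0.00953). Rpl36a (-0.34) and Rplp1 (-0.33) lay below the members' median in dendritic cells and did not pass (edgeR quasi-likelihood, Benjamini-Hochberg adjusted p = 0.143 and 0.271). Neutrophils stood apart from the other classes. Of 80 members 73 were lower and 0 higher in neutrophils, beside 17.6% lower and 5.36% higher among all genes (edgeR quasi-likelihood test, Benjamini-Hochberg). DESeq2 gave 67 of 82 lower and 0 higher, beside 673 lower and 2276 higher of all 14240 genes. In the edgeR fit all members had a negative log2 fold change, so none with an unadjusted p under 0.05 was higher. The members' median was -1.38 beside -0.79 for all genes, which put the members at -0.59 relative to them. This relative value was -0.14 without shSELP replicate 1, -0.27 without shSELP replicate 2 and -1.72 with DESeq2, so its size depended on library and scaling. Rpl4, a large-subunit protein lining the exit tunnel, had the largest of the named differences in neutrophils (-2.26, edgeR quasi-likelihood, Benjamini-Hochberg adjusted p = 1.36e-07). Rplp1 (-1.88) and Rpl14 (-1.84), a large-subunit protein, were lower as well (edgeR quasi-likelihood, Benjamini-Hochberg adjusted p = 2.19e-06 and 1.08e-07). Rpl22l1 (-0.49) and Rpl35 (-0.72) did not pass, whereas Rps27a (-0.73) did (edgeR quasi-likelihood, Benjamini-Hochberg adjusted p = 0.184, 0.207 and 0.00111). Neutrophil sums came from 7, 9, 24 and 17 cells and rest on few counts, and the shNC cells among them had shares of 11.2% and 14.9%.

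Paralogs differed among classes in ways of their own. Rpl22l1 (3:28805436-28807424, plus strand), the paralog of the RNA-binding Rpl22, stood at 1273, 1040, 1060 and 938 CPM in T cells and at 413, 314, 309 and 265 CPM in macrophages. All T cell libraries lay above all macrophage libraries (1.46, SE 0.18, edgeR quasi-likelihood, Benjamini-Hochberg adjusted p = 4.94e-09). NK cells had 1243, 1283, 967 and 1100 CPM of Rpl22l1 (1.56, SE 0.18, edgeR quasi-likelihood, Benjamini-Hochberg adjusted p = 7.1e-09). Tumor cells had 423, 312, 445 and 255 CPM and overlapped macrophages. Rpl22 itself (4:152325742-152334071, plus strand) averaged 2303 CPM in T cells and 1370 in macrophages, a smaller difference (0.48, edgeR quasi-likelihood, Benjamini-Hochberg adjusted p = 0.0143). Rps27l (9:66946086-66949516, plus strand), a p53-induced paralog of Rps27, stood at 1191, 1640, 1196 and 1737 CPM in dendritic cells and at 477, 525, 367 and 384 CPM in macrophages. Every dendritic value was above every macrophage value (1.55, edgeR quasi-likelihood, Benjamini-Hochberg adjusted p = 9.78e-10). NK cells were at the other end with 171, 267, 157 and 196 CPM (-1.37, SE 0.19, edgeR quasi-likelihood, Benjamini-Hochberg adjusted p = 1.88e-07). T cells, with 480, 354, 295 and 322 CPM, were lower as well (-0.54, SE 0.16, edgeR quasi-likelihood, Benjamini-Hochberg adjusted p = 0.00345), although their CPM overlapped the macrophage range. Microglia had 289, 416, 263 and 295 CPM (-0.58, edgeR quasi-likelihood, Benjamini-Hochberg adjusted p = 0.00403). Rps27l was thus lower than in macrophages in both lymphocyte classes, where most members were higher. With library size without TMM 0 members were lower in T cells, so the T cell call of Rps27l was lost under that scaling. Rps27 averaged 14.1 CPM in macrophages, 28.2 in T cells and 50.9 in NK cells, and its near-identical copies make these levels uncertain. Rpl7l1, related to Rpl7 and linked to ribosome assembly, averaged 103 ± 8.31 CPM in tumor cells and 51.2 ± 5.95 in macrophages (0.48, edgeR quasi-likelihood, Benjamini-Hochberg adjusted p = 0.00341). Rpl39l (16:10170226-10174911, plus strand), a testis-enriched paralog of Rpl39, averaged 6.42 ± 4.42 CPM in microglia and 6.18 ± 3.63 in T cells. Rpl3l (17:24727820-24736143, plus strand), the muscle paralog of Rpl3, reached 3.84 ± 5.63 CPM in dendritic cells, and Rpl10l, a testis paralog of Rpl10, 1.62 ± 1.2 CPM in tumor cells. These paralogs of restricted tissues were too low to be tested in the joint fit, and Rps4l, a paralog of Rps4x, had no entry in the tables.

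**Figure D3:**
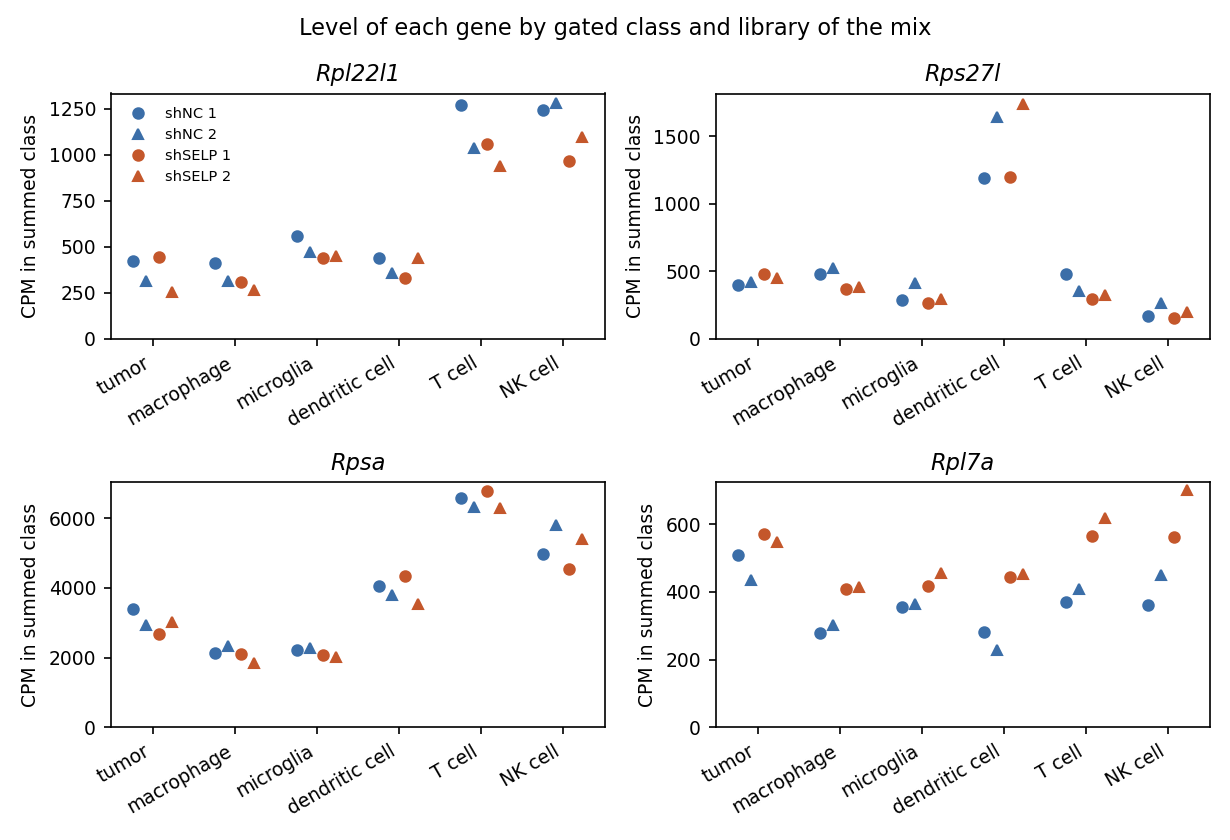
Levels (CPM) of Rpl22l1, Rps27l, Rpsa and Rpl7a in the tumor, macrophage, microglia, dendritic, T and NK cells of each mix library. Blue marks shNC and orange shSELP libraries.

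The pyrimidine run was looked up at the annotated transcript starts of RefSeq (GRCm38.p6), in which 63 of the 83 members were matched by symbol. Of these, 13 (20.6%) had a C at the annotated start followed by a run of pyrimidines of 5 or more in all. Among all 27025 annotated genes 813 (3.01%) had such a run, and among 17492 protein-coding genes 467 (2.67%). The longest run of a member was 13, in Rpl15. An annotated start can lie some bases from the start in use, so a missing run may come from the annotation. Examples below, chosen after levels were known, run from 10 bases before the start to 20 bases from it, on the transcribed strand, with capitals marking the run. Rps6 (chr4:86857348-86857377, minus strand), Rps15a (chr7:118116128-118116157, minus strand), Rplp2 (chr7:141447641-141447670, plus strand) and Rps27 (chr3:90213629-90213658, minus strand) had runs of 9, 8, 5 and 7. The paralogs Rps27l (chr9:66946076-66946105, plus strand) and Rpl22l1 (chr3:28805498-28805527, plus strand) had none at the annotated start. In both windows the start base is a G and pyrimidines follow it directly, so no run was counted because a C was required there. These windows therefore do not show that the paralogs lack the run.
Rps6: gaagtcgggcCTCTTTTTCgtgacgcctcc
Rps15a: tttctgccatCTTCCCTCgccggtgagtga
Rplp2: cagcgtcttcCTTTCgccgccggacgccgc
Rps27: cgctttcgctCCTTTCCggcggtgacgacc
Rps27l: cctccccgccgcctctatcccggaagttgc
Rpl22l1: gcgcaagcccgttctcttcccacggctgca

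Between groups, no member passed in any of 7 classes of the mix, which share the same 4 libraries. In macrophages 0 of 81 members passed, while 0.423% of all 10405 genes did (edgeR quasi-likelihood test, Benjamini-Hochberg), and 11 of 81 had an unadjusted p under 0.05 beside 12.8% of all genes. DESeq2 called 1 member in macrophages, Rpl7a. Rpl7a was called there without shNC replicate 1, and Rpl7a and Rpl22l1 were called without shNC replicate 2. A fit between groups with 1 library left out has only 1 library in a group. In each such fit with called members, genes outside the members were called as well. In microglia 0 of 80 passed beside 0.464% of all genes by edgeR, with 3 of 80 at an unadjusted p under 0.05 beside 12.8% of all genes, and DESeq2 called 0. T cells had 0 of 81 beside 0.031% of all genes by edgeR, 10 of 81 at an unadjusted p under 0.05 beside 8.83%, and 1 by DESeq2, Rpl7a. Without shNC replicate 2 the members called in T cells were Rpl7a, Rps27l and Rpl27, and without either shSELP library Rpl7a was called. For tumor cells edgeR gave 0 of 80 beside 0.436% of all genes, 18 of 80 at an unadjusted p under 0.05 beside 13.1%, and DESeq2 gave 1, Rpl39. Leaving out shNC replicate 2 moved the tumor count to 47, all lower in shSELP and beside 256 lower and 243 higher of all 8134 genes, and leaving out shNC replicate 1 moved it to 1, so the tumor result depended on which library was kept. For NK cells edgeR gave 0 of 78 beside 0.148% of all genes, 9 of 78 at an unadjusted p under 0.05 beside 5.52%, and DESeq2 gave 0. Leaving out shSELP replicate 2 gave 1 member in NK cells, Rplp2. Dendritic cells had 0 of 78 beside 0.0236% of all genes by edgeR, 3 of 78 at an unadjusted p under 0.05 beside 4.58%, and 0 by DESeq2. Neutrophils had 0 of 68 beside 0% of all genes by edgeR, 43 of 68 at an unadjusted p under 0.05 beside 10.7%, and 0 by DESeq2. Leaving out shNC replicate 1 gave 2 members in neutrophils, Rplp1 and Rpsa. Counts at an unadjusted p under 0.05 depended on the fit, as DESeq2 gave 7 of 80 members in neutrophils and 32 of 80 in tumor cells. Among all genes DESeq2 gave 35 of 8825 and 559 of 10699. In neutrophils, tumor cells, NK cells and T cells these counts also moved with the library left out. Median log2 fold changes of the members were -0.06 in macrophages, -0.10 in microglia, 0.04 in T cells, -0.36 in tumor cells, -0.23 in NK cells and -0.16 in dendritic cells, with all genes from -0.01 to 0.01. Leaving out 1 library moved these medians to between -0.10 and -0.03 in macrophages, -0.15 and -0.05 in microglia, -0.06 and 0.12 in T cells, -0.52 and -0.18 in tumor cells, -0.34 and -0.12 in NK cells and -0.31 and -0.05 in dendritic cells. Neutrophil members had a median of -1.24, or -1.34 relative to all genes at 0.10, from sums in which a few shNC cells weighed heavily (shares of 11.2% and 14.9% beside medians over cells of 4.28% and 5.77%). Members with a positive value numbered 25 in macrophages, 18 in microglia, 47 in T cells, 6 in tumor cells, 8 in NK cells, 8 in dendritic cells and 0 in neutrophils. Leaving out 1 library moved the NK cell count to between 2 and 16 and the dendritic count to between 5 and 29 (29 without shNC replicate 1, 27 without shSELP replicate 2). The tumor count moved to between 3 and 8 and the neutrophil count to between 1 and 5. The tumor median and count describe gated cells, with the limit of the tumor gate given above. The T cell count was 21 without shSELP replicate 1 and 62 without shSELP replicate 2, so the direction in T cells depended on which library was kept.

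**Figure D4:**
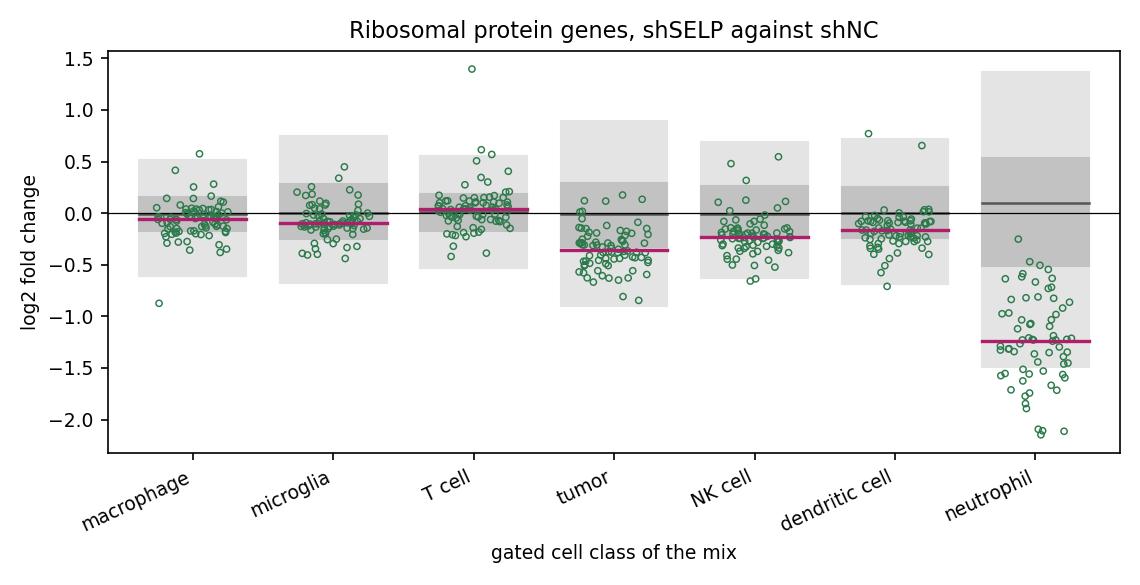
Log2 fold change (shSELP over shNC) of each ribosomal protein gene in 7 classes of the mix (green; magenta line, median of the members). Grey bands show the 25th to 75th and the 5th to 95th percentile of all genes tested, and the grey line their median.

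Rpl7a had the largest positive value of a member of at least 100 CPM in macrophages, T cells, NK cells and dendritic cells, without passing. In macrophages it stood at 278 and 302 CPM in shNC and 408 and 415 CPM in shSELP replicates 1 and 2. Both shSELP values lay above both shNC values (log2 fold change 0.57, SE 0.10, edgeR quasi-likelihood, Benjamini-Hochberg adjusted p = 0.0508). T cells had 371, 410, 566 and 618 CPM, likewise without overlap (0.61, SE 0.12, edgeR quasi-likelihood, Benjamini-Hochberg adjusted p = 0.220). NK cells had 360, 451, 562 and 702 CPM (0.55, edgeR quasi-likelihood, Benjamini-Hochberg adjusted p = 0.811). In dendritic cells the levels were 282, 229, 444 and 454 CPM (0.77, edgeR quasi-likelihood, Benjamini-Hochberg adjusted p = 0.995). The groups did not overlap in either of these classes. Microglia had 357, 363, 418 and 456 CPM (0.23, edgeR quasi-likelihood, Benjamini-Hochberg adjusted p = 0.604), and tumor cells 508, 436, 571 and 549 CPM (0.18, adjusted p = 0.710). Because Rpl7a has a near-identical copy, these levels carry the uncertainty given above. Rpl27, a large-subunit protein with a copy as well, stood at 128, 139, 189 and 202 CPM in T cells (0.57, edgeR quasi-likelihood, Benjamini-Hochberg adjusted p = 0.255). Its macrophage levels were 65.1, 66.6, 81.8 and 85.5 CPM (0.41, edgeR quasi-likelihood, Benjamini-Hochberg adjusted p = 0.156). Rpl27 thus separated the groups in both classes without passing. For members named by the size of their difference in the mix, separation of 2 against 2 libraries follows readily. Here and below it is no further support for a difference, and its frequency among all genes was not counted. Rpl41 (10:128548114-128549305, minus strand), a very short protein at the joint of the subunits, stood at 2060, 2128, 1470 and 1648 CPM in macrophages (-0.36, edgeR quasi-likelihood, Benjamini-Hochberg adjusted p = 0.217). In microglia it stood at 2014, 2421, 1534 and 1856 CPM (-0.44, edgeR quasi-likelihood, Benjamini-Hochberg adjusted p = 0.253). T cells had 3477, 3415, 2622 and 2841 CPM of Rpl41 (-0.32, edgeR quasi-likelihood, Benjamini-Hochberg adjusted p = 0.498). Both shSELP libraries were below both shNC libraries for Rpl41 in all 3 classes.

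Other members at the ends of the class lists also failed to pass. Rps18, a protein of the small subunit's head, stood at 956, 1100, 710 and 795 CPM in macrophages (-0.38, edgeR quasi-likelihood, Benjamini-Hochberg adjusted p = 0.209). Rps27l in macrophages was lower in both shSELP libraries than in both shNC libraries (-0.35, edgeR quasi-likelihood, Benjamini-Hochberg adjusted p = 0.198). In microglia the Rps27l groups overlapped (-0.41, edgeR quasi-likelihood, Benjamini-Hochberg adjusted p = 0.406). T cell levels of Rps27l did not overlap between groups (-0.42, edgeR quasi-likelihood, Benjamini-Hochberg adjusted p = 0.511). In the tumor class Rpl39 (X:37082520-37085402, minus strand), a short protein of the exit tunnel, stood at 5819, 5402, 3649 and 3071 CPM (-0.81, SE 0.21, edgeR quasi-likelihood, Benjamini-Hochberg adjusted p = 0.179). Rpl23a, which lies at the tunnel exit, stood at 2767, 2301, 1718 and 1629 CPM (-0.67, edgeR quasi-likelihood, Benjamini-Hochberg adjusted p = 0.228). Rps28, a small-subunit protein near the mRNA exit, stood at 3802, 3235, 2321 and 2389 CPM (-0.65, edgeR quasi-likelihood, Benjamini-Hochberg adjusted p = 0.240). All 3 were lower in both shSELP libraries, whose tumor gates held few cells. Among the stalk genes Rplp2 stood at 1364, 1181, 762 and 968 CPM in tumor cells (-0.63, edgeR quasi-likelihood, Benjamini-Hochberg adjusted p = 0.25) and at 1347, 1373, 700 and 1080 CPM in NK cells (-0.66, adjusted p = 0.518). In microglia Rplp2 stood at 752, 851, 498 and 765 CPM with overlap of the groups (-0.40, edgeR quasi-likelihood, Benjamini-Hochberg adjusted p = 0.428). Rplp1 in microglia went the other way with 3028, 2842, 3652 and 3616 CPM (0.26, edgeR quasi-likelihood, Benjamini-Hochberg adjusted p = 0.417). Rplp0 (0.02) and Rpsa (-0.11) had small values in macrophages.

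Members furthest above the others in a class, after Rpl7a, had mostly small values. In macrophages these were Rplp1 with 2140, 2353, 2479 and 2331 CPM (0.17, edgeR quasi-likelihood, Benjamini-Hochberg adjusted p = 0.553) and Rpl11 with 888, 935, 911 and 1009 CPM (0.14, edgeR quasi-likelihood, Benjamini-Hochberg adjusted p = 0.626), both with overlapping groups. Microglia had Rpl21 at 1701, 1716, 1945 and 2134 CPM (0.20, edgeR quasi-likelihood, Benjamini-Hochberg adjusted p = 0.577). T cells had Rpl9 at 98.4, 91.2, 113 and 126 CPM (0.35, edgeR quasi-likelihood, Benjamini-Hochberg adjusted p = 0.479). Both shSELP values exceeded both shNC values for Rpl21 and Rpl9. The tumor class had Rpl27 at 111, 135, 124 and 159 CPM (0.13, edgeR quasi-likelihood, Benjamini-Hochberg adjusted p = 0.813) and Rps27l at 396, 423, 478 and 452 CPM (0.12, edgeR quasi-likelihood, Benjamini-Hochberg adjusted p = 0.802). NK cells had Rpl27 at 94.8, 156, 203 and 202 CPM (0.48, edgeR quasi-likelihood, Benjamini-Hochberg adjusted p = 0.949) and Rps12 with a smaller value (0.13, edgeR quasi-likelihood, Benjamini-Hochberg adjusted p = 0.978). Below the members' median, NK cells had Rpl36a at 351, 465, 203 and 337 CPM (-0.64, edgeR quasi-likelihood, Benjamini-Hochberg adjusted p = 0.78) and Rpl35 at 285, 209, 129 and 196 CPM (-0.52, edgeR quasi-likelihood, Benjamini-Hochberg adjusted p = 0.868). Groups did not overlap for Rpl36a and Rpl35 in NK cells. Dendritic cells had Rpl27 at 76.8, 78.7, 146 and 113 CPM (0.65) and Rpl11 near no difference (0.04), with the same adjusted p as the members given next. Rpl35 (-0.71) and Rpl31 (-0.58), both large-subunit proteins, lay furthest below the other members in dendritic cells (edgeR quasi-likelihood, Benjamini-Hochberg adjusted p = 0.995). Neutrophils had 1742, 3077, 330 and 540 CPM of Rpsa (-2.15, edgeR quasi-likelihood, Benjamini-Hochberg adjusted p = 0.388) from very few cells. Rpl12 and Rps19 were likewise lower in both shSELP libraries without passing (-2.11 each), and Rpl14 (-0.25), Rpl31 (-0.47) and Rpl24 (-0.51) lay highest among neutrophil members.

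Fau, a ribosomal protein made as a fusion with a ubiquitin-like protein, falls outside the symbol rule. Between classes it was lower in tumor cells than in macrophages, at 2654 against 4966 CPM (-1.43). Genes that act with ribosomal proteins were read as lists of translation factors, ribosome biogenesis factors and regulators of ribosome synthesis. By edgeR none of their genes passed between groups in any class, and DESeq2 called 0. At an unadjusted p under 0.05 biogenesis factors numbered 7 of 30 in macrophages (median -0.19), 2 of 30 in T cells (-0.14) and 1 of 29 in tumor cells (-0.10), beside 12.8%, 8.83% and 13.1% of all genes. Translation factors numbered 0 of 16 in macrophages (median 0.03) and 1 of 16 in tumor cells (-0.29), and regulators 1 of 16 in macrophages (0.05) and 2 of 15 in tumor cells (-0.13), beside the same shares of all genes. Biogenesis factors numbered 0 of 26 in microglia (median 0.07) and 1 of 14 in NK cells (-0.50), beside 12.8% and 5.52% of all genes. Dendritic cells had 0 of 17 (-0.29) and neutrophils 1 of 1 (-2.10), beside 4.58% and 10.7%. Between classes, 25 of 27 biogenesis factors were higher in tumor cells than in macrophages with a median of 1.15, beside 37.6% of all genes and the members' median of 0.08 (edgeR quasi-likelihood, Benjamini-Hochberg). Rrs1, a factor for large-subunit assembly, averaged 126 CPM in tumor cells and 12.7 in macrophages (2.80), and Nop2, an rRNA methyltransferase, had 2.16. Myc, which drives ribosome synthesis, averaged 121 ± 49.0 CPM in tumor cells and 11.9 in macrophages (2.82). T cells had 19 of 27 biogenesis factors higher and 2 lower (median 0.48) and 10 of 16 translation factors higher and 0 lower (median 0.51), beside 35.1% higher and 31.4% lower among all genes. NK cells had 8 of 27 (median 0.39) and 7 of 16 (median 0.38) higher, beside 19.2% of all genes. Biogenesis factors and ribosomal proteins thus ranked tumor cells and T cells differently, a difference that was not tested.

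In the CD11b+ libraries, with 1 library per group, no test was made and every interval covers counting error only. Members took 17.8% of UMIs in shNC (95% binomial interval 17.75–17.79) and 15.9% in shSELP (15.89–15.93), a difference of -1.86 points. In macrophages the shares were 17.7% (17.70–17.76) and 15.4% (15.34–15.40) from 1568 and 1828 cells, a difference of -2.36 points. Microglia had 18.3% (18.21–18.40) and 17.2% (17.08–17.30) from only 111 and 78 cells, a difference of -1.12 points. The shSELP share was the lower of the pair for all cells and both classes. Median UMIs were lower in shSELP as well, at 4209 and 3737 for all cells, 4120 and 3644.5 for macrophages and 5436 and 5377.5 for microglia. Share and depth were not separated here. Of 80 members with at least 100 UMIs, 20 were lower in shSELP by more than 1.2-fold and 1 was higher, beside 13.1% lower and 31.4% higher among all 8569 genes. The members' median log2 ratio was -0.17, against 0.10 for all genes, and 72 members had a ratio below 1. With TMM factors, which put the median of all genes at 0.01, 40 members were lower and 1 higher, beside 1740 lower and 1949 higher among all 8569 genes. Rpl11 stood at 1399 CPM in shNC (95% Poisson interval 1378–1420) and 928 in shSELP (910–946), a log2 ratio of -0.59. Rpl7a stood at 507 CPM (495–520) and 355 (344–366), or -0.51. Rpl17, a large-subunit protein near the tunnel exit, stood at 1356 CPM (1336–1377) and 1001 (983–1019), or -0.44. Rpl27, which had lain higher in shSELP in several classes of the mix, was the lowest member here with 98.0 CPM (92.6–104) and 63.2 (58.7–68.0), or -0.63. None of these intervals overlapped between the libraries. Rpl5 lay on the other side with 1128 CPM (1109–1146) and 1258 (1238–1279), or 0.16, so the 5S RNA partners Rpl5 and Rpl11 moved apart. Rps27 was the member above 1.2-fold, at 16.0 CPM (13.8–18.3) and 21.5 (18.9–24.3), or 0.43, from 200 and 245 UMIs. Rpl13a, a protein of the GAIT complex, stood at 103 CPM (97.5–109) and 116 (110–122), or 0.17. Rps27l stood at 531 CPM (519–544) and 543 (530–557), or 0.03, with overlapping intervals. Stalk members stood at 3418 and 3192 CPM for Rplp0 (-0.10), 3936 and 3410 for Rplp1 (-0.21) and 169 and 134 for Rplp2 (-0.33). Rpsa stood at 2731 and 2627 CPM (-0.06). Outside the rule, Fau stood at 6084 and 4862 CPM and was lower in shSELP. Among translation factors 3 of 16 were higher and 1 lower (median 0.03), and among biogenesis factors 9 of 29 were higher and 4 lower (median 0.13). Regulators had 5 of 16 higher and 3 lower (median 0.04), and the median of all genes was 0.10. With 1 library per group, hairpin and library cannot be told apart.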

How the data were processed

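Count tables deposited by the authors were read as given, and a cell was kept if it had 500 genes or more and no more than 10% of UMIs from mitochondrial genes. Upstream, reads had been aligned to mm10 with Cell Ranger 1.3 per the submitters' notes. The members and gene lists were chosen with earlier results of these data known. Cells were gated on fixed markers and UMIs summed per class and library. Sums were compared by edgeR 4.0.16 (filterByExpr, TMM, quasi-likelihood, Benjamini-Hochberg) in R 4.3.3, with DESeq2 1.42.0 as the alternative, and shares by exact permutation or sign flips in Python 3.11.15 (numpy 2.4.6, pandas 2.3.3, scipy 1.17.1, matplotlib 3.10.9). CD11b+ libraries were compared by CPM ratio, with a difference of 1.2-fold counted. Named were the stalk genes, Rpsa, a fixed panel and the paralogs with their partners whatever their values, and in each comparison up to 3 members of at least 100 CPM furthest above and up to 3 furthest below the members' median, with some genes not printed. Other lists were given by counts and medians. Alternatives set before reading the data were DESeq2, library size without TMM, scaling from other genes, no filter on low counts, 4 markers, no filter on cells, a replicate block, the median over cells, shares without mitochondrial UMIs, shares without the deepest cells and leaving out each library. Cells of at least 5000 UMIs, cells outside the cycle gate and a class fit without neutrophils were added after the data had been seen. Cell numbers differ from those of the published methods, and day and kit differ between labels and methods.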

Additional observations from a re-analysis of the deposited data

Results flagged for a closer look

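Rpl7a in macrophages had a log2 ratio (shSELP over shNC) of 0.507 in the mix and of -0.551 in the CD11b+ libraries. In the mix it stood at 278 and 302 CPM in shNC and 408 and 415 CPM in shSELP, and in the CD11b+ libraries at 499 and 341 CPM. The difference between the experiments was not tested, and day, sorting and library were not separated. The sign in the CD11b+ libraries rests on titles and genotype, because 7 of 8 entries of the shSELP library had a description line naming the negative control, and with the labels turned both values would be positive. Itgam under the given labels stood at 114 (shNC) and 168 CPM (shSELP) in the CD11b+ libraries and at 109, 113, 169 and 164 CPM in the mix, and the member share in macrophages was lower in shSELP in both.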

How the results depend on the processing

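Of 396 alternatives for shares and counts, 329 gave the same result and 67 moved it. Taking the median over cells gave share differences between groups of -0.343 in NK cells, -2.63 in dendritic cells and -0.816 in endothelial cells, and -1.60 between dendritic cells and microglia and -0.661 between NK cells and T cells, both of the opposite sign. In CD11b+ cells it gave -2.04 for all cells, -2.42 for macrophages and -1.31 for microglia. Without mitochondrial UMIs the CD11b+ differences were -1.98 for all cells and -2.49 for macrophages, without a filter on cells -1.83 for all cells, and without the deepest cells -2.01, -2.46 and -1.52 for all cells, macrophages and microglia. Between groups DESeq2 called 1 member in macrophages, 1 in T cells and 1 in tumor cells, and without a filter on low counts 3, 3 and 9 were called. Gating with 4 markers gave 1 in macrophages. With a replicate block 1 member was called in macrophages and 4 in NK cells, and 0 in the other classes. The replicate numbers are only names, and deviations of same-numbered libraries correlated at 0.0025 to 0.352 across genes in only 2 pairs. Leaving out a library gave 0 to 2 members in macrophages, 0 to 3 in T cells, 0 to 47 in tumor cells, 0 to 2 in neutrophils and 0 to 1 in NK cells. Against macrophages DESeq2 gave 19 higher in microglia, 1 lower in T cells, 52 higher and 3 lower in tumor cells and 10 higher in dendritic cells. Library size without TMM gave 0 lower in T cells and 55 higher and 0 lower in tumor cells. No filter on low counts gave 2 higher and 3 lower in microglia, 39 higher in T cells, 9 higher and 27 lower in tumor cells, 2 lower in NK cells and 3 higher in dendritic cells. Without neutrophils in the fit, added after the data had been seen, microglia had 11 higher and 2 lower, T cells 4 lower, tumor cells 22 lower, NK cells 2 lower and dendritic cells 4 lower. Leaving out a library gave 2 to 3 higher in microglia, 1 to 2 lower in T cells, 10 to 21 higher and 6 to 15 lower in tumor cells and 3 to 4 higher in dendritic cells. For CD11b+ libraries TMM gave 40 lower (1740 of all 8569 genes), macrophages alone 2 higher and 31 lower of 80 (2402 and 1062 of all 7364 genes), and microglia alone 0 higher and 6 lower of 72 (280 and 282 of all 1353 genes). Members in T cells and NK cells stayed above, and in neutrophils below, the median of all genes in every setting, and tumor cells, microglia and dendritic cells moved across it. Of 271 alternatives for named genes that were called, 14 lost the call. Cells of at least 5000 UMIs, chosen after the data had been seen, gave 0 members called in the 5 classes fitted. Restricting tumor cells to those outside the cycle gate gave a group median of -0.63, beside -0.04 for all genes, with 0 of 78 members called. That fit rests on 41 and 30 shNC cells and only 18 and 8 shSELP cells. The cause of these movements was not tested.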

Other observations

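Plasma cells had shares of 10.3%, 10.8%, 10.5% and 6.44% in shNC replicates 1 and 2 and shSELP replicates 1 and 2, from 10, 7, 2 and 2 cells.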
